A study of Sus scrofa with 15 samples.

Results

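RXRG encodes the retinoid X receptor gamma and NCOA2 a coactivator of nuclear receptors, and both were followed in the backfat of 15 pigs, with 1 probe set for each gene. They are 2 of the 1260 genes that could be named in the deposited table. Both genes were chosen by their measured difference between diets in these same arrays. Their diet values are therefore given as a description without a test, and nothing is supported with them. Their relation to live weight, to each other and to other genes was not used in the choice.

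The animals were castrated male Iberian pigs, 8 fed a high oleic diet and 7 fed a control diet, which the labels also call standard. Treatment began at 28 kg live weight and lasted 24 weeks, up to slaughter at about 110 kg. The feed held 3360 kcal of crude energy per kg in the high oleic group and 3130 kcal in the control group, and amounts were set so that energy and protein intake were matched. RNA of the inner layer of backfat from each animal was hybridised to 1 Affymetrix porcine array. No label says how litters, pens or hybridisation days were spread over the diets. Feed composition beyond energy was not analysed here.

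Retinoid X receptors are nuclear receptors that bind DNA mostly as the shared partner of other receptors, among them those for fatty acids (PPARs), oxysterols (LXRs), retinoic acid and thyroid hormone. In rodents and humans the gamma form is best known from skeletal muscle and brain. NCOA2, also called TIF2, belongs to the p160 family of coactivators, which dock on ligand-bound receptors and recruit enzymes that modify histones. In mouse fat, work on p160 coactivators tied NCOA2 to lipid storage through PPARG. Neither gene's sequence was used here.

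Per the deposited log2 values, array medians lay between 6.39 and 6.67, and pairs of arrays correlated between 0.759 and 0.958. Every one of the 3272 probe sets had at least 3 arrays away from its own median by 0.59 log2 units or more, so less variable genes are outside these results. Of the 8 adipocyte markers, LEP and PNPLA2 were measured. Their mean log2 signal lay between 9.50 and 10.53 in high-oleic pigs and between 8.78 and 9.97 in control pigs, which fits the tissue label. ADIPOQ, PLIN1 and FABP4 were not analysed here. High-oleic animal 8 had the highest signal of transcripts spiked into the RNA, 7.29 on the log2 scale, against 5.25 to 6.50 in the other high-oleic animals and 5.19 to 6.12 in control animals. Within whole tissue, a change in the number of cells of a type and a change in RNA per cell cannot be told apart.

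RXRG signal was higher in high-oleic pigs, with almost separate groups. On the log2 scale it ran from 6.99 through a median of 7.75 to 8.02 in high-oleic animals, against 5.61 through 6.44 to 7.12 in control animals. In 7 of 8 high-oleic animals RXRG lay above every control animal. The exception was high-oleic animal 5, at 6.99, which fell just below control animal 1 at 7.12. The mean was 7.64 ± 0.34 (SD, n = 8) in high-oleic animals and 6.48 ± 0.52 (SD, n = 7) in control animals. The difference of 1.17 (SE 0.25, 95% interval 0.64 to 1.69, limma) is a 2.24-fold signal.

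NCOA2 signal was lower in high-oleic pigs. It ran from 4.72 through a median of 5.08 to 5.97 in high-oleic animals, against 5.68 through 5.84 to 6.44 in control animals. In 7 of 8 high-oleic animals NCOA2 lay below every control animal, and the exception was again high-oleic animal 5. At 5.97 this animal lay above 5 of the 7 control animals. The mean was 5.23 ± 0.45 (SD, n = 8) in high-oleic animals and 5.91 ± 0.26 (SD, n = 7) in control animals, a difference of -0.68 (SE 0.24, 95% interval -1.17 to -0.19). The high oleic signal was 0.622 of the control signal. High-oleic animals 3 and 4 carried the same deposited NCOA2 value, 5.61.

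**Figure D1:**
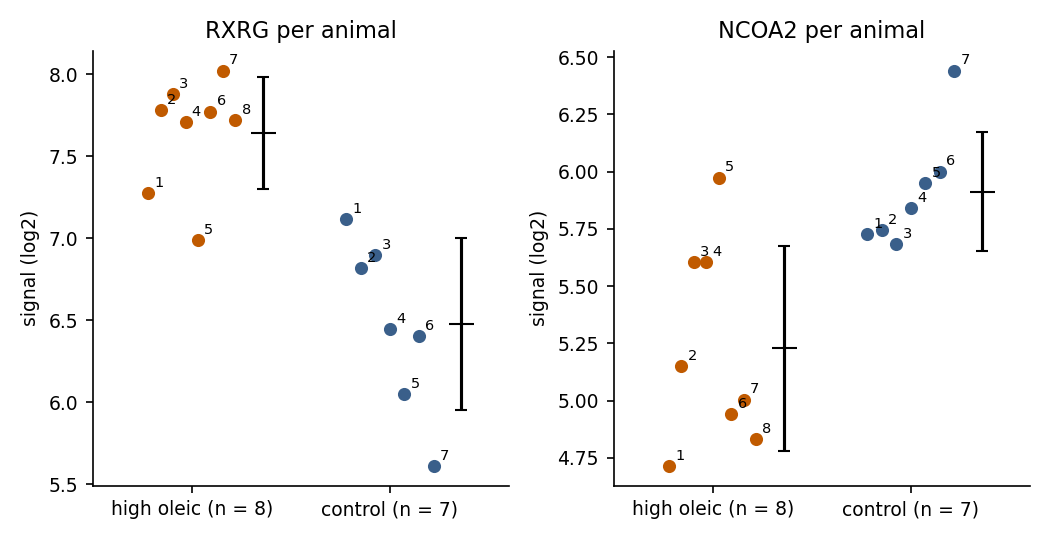
Log2 signal of RXRG (left) and NCOA2 (right) in each animal, numbered as in the labels, with high oleic (n = 8) left of control (n = 7) and the mean with its SD as a bar beside each group. High-oleic animal 5 is the lowest of its group for RXRG (6.99) and the highest for NCOA2 (5.97), and control animal 7 is the lowest for RXRG (5.61) and the highest for NCOA2 (6.44).

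Among all 3255 tested probe sets, limma with Benjamini-Hochberg adjustment called 0 between diets, or 0%, and 128 had an unadjusted p under 0.05, or 3.93%. The spread of both genes within diets was small for this table. The within-diet SD was 0.43 for RXRG and 0.37 for NCOA2, against a median of 0.55 over the tested probe sets, and 16.8% and 3.66% of the probe sets had a smaller one. RXRG varied over 1.03 log2 units in high-oleic pigs and 1.51 in control pigs. NCOA2 varied over 1.26 in high-oleic pigs and 0.76 in control pigs. The table holds only probe sets that varied over the arrays, and a diet difference adds to that variation. A gene with a large diet difference can therefore be in the table with a small SD within diets. These spreads belong to the contrast that chose the genes and were not compared by a test.

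Leaving out any 1 animal kept the RXRG difference between 1.02 and 1.27 and the NCOA2 difference between -0.79 and -0.60. Markers of other cells and the spiked signal were set beside these values. The skeletal muscle score, the mean of 11 of 16 listed markers after centring each over the arrays, ran from -1.81 to 2.94 in high-oleic pigs and from -2.27 to 3.16 in control pigs. With this score in the fit, the difference was 1.18 for RXRG and -0.71 for NCOA2. With the spiked signal in the fit it was 1.24 for RXRG and -0.69 for NCOA2.

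The relation to live weight asks whether either gene moved with the size of the pig. Live weight was 109.2 ± 3.53 kg (SD, n = 8) in high-oleic animals and 117.2 ± 7.33 kg (SD, n = 7) in control animals, so weight and diet overlap only in part. Weight slopes were therefore fitted at fixed diet. RXRG changed by -0.19 log2 units per 10 kg (SE 0.24, 95% interval -0.70 to 0.32), and NCOA2 by 0.15 (SE 0.23, 95% interval -0.33 to 0.63). The limma adjusted p was 0.921 for both, and limma called 0 of 3255 probe sets, or 0%, for live weight. At an unadjusted p under 0.05 it placed 124, or 3.81%. Both intervals include slopes of either sign.

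The RXRG slope fitted over both diets rested on control animal 5, the heaviest pig at 133 kg. Without it the slope was 0.0155 per 10 kg for RXRG (SE 0.47) and 0.46 for NCOA2 (SE 0.43), with limma adjusted p-values of 0.997 and 0.961. Among high-oleic animals the correlation of RXRG with weight was positive and did not pass the test (r = 0.448, exact permutation p = 0.266, rho = 0.476, exact permutation p = 0.243, n = 8). In control animals the correlation of RXRG with weight had the other sign (r = -0.497, exact permutation p = 0.270, rho = -0.679, exact permutation p = 0.110, n = 7), also without control animal 5 (r = -0.536, exact permutation p = 0.281, n = 6). For NCOA2 it was positive in high-oleic pigs (r = 0.354, exact permutation p = 0.398, rho = 0.671, exact permutation p = 0.0765) and in control pigs (r = 0.193, exact permutation p = 0.610, rho = 0.607, exact permutation p = 0.167). With single animals left out, r of RXRG with weight ran from 0.172 without high-oleic animal 7 to 0.830 without high-oleic animal 5, and from -0.878 without control animal 7 to -0.426 without control animal 1. For NCOA2 it ran from 0.140 to 0.838, the highest without high-oleic animal 7, and from 0.106 to 0.700, the highest without control animal 7. The adjusted p of these fits was 0.0681 or more. These 4 relations belong to a family of 14, in which their adjusted p-values for r were 0.756 to 0.776.

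The slopes were also compared between diets. The slope in high-oleic pigs minus that in control pigs was 0.79 per 10 kg for RXRG (95% interval -0.45 to 2.02, limma adjusted p = 0.982) and 0.38 for NCOA2 (95% interval -0.82 to 1.58, limma adjusted p = 0.996). For this slope difference limma called 0 of 3255 probe sets, or 0%, and 162, or 4.98%, had an unadjusted p under 0.05. Omitting control animal 5 gave a slope difference of 1.58 for RXRG and -0.0412 for NCOA2. With live weight in the fit, the diet difference was 1.01 for RXRG (SE 0.32) and -0.56 for NCOA2 (SE 0.30). In the 10 animals of 109.5 to 118 kg, 4 high oleic and 6 control, it was 1.10 for RXRG (SE 0.32) and -0.36 for NCOA2 (SE 0.26). With live weight in the fit and the heaviest pig left out it was 1.10 for RXRG (SE 0.37) and -0.43 for NCOA2 (SE 0.35). As the diet difference chose the genes, these values are a description.

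**Figure D2:**
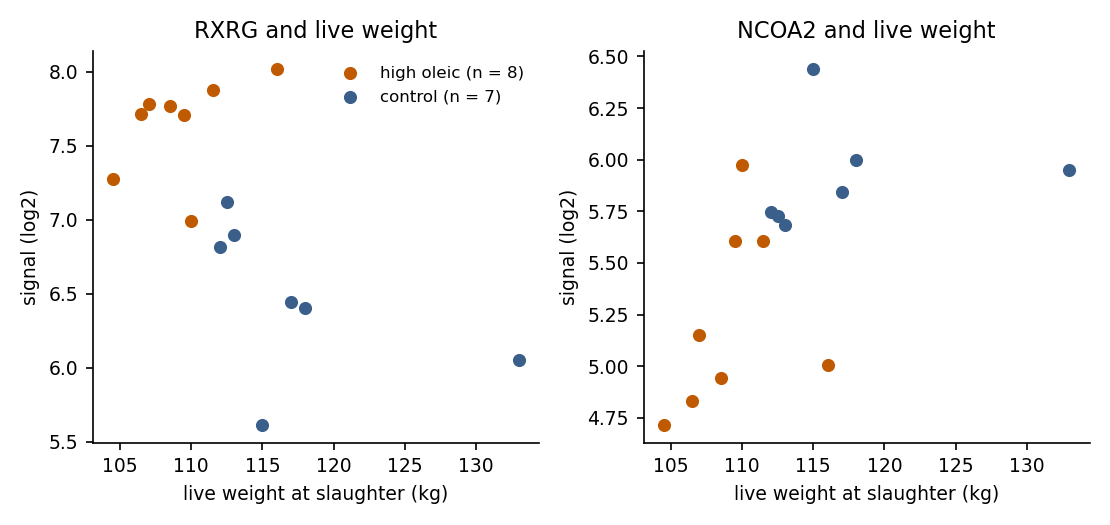
Log2 signal of RXRG (left) and NCOA2 (right) against live weight at slaughter in kg, 1 point per animal, high oleic (n = 8) and control (n = 7). The control animal at 133 kg stands apart on the weight axis, and between 109.5 and 118 kg both diets are represented.

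RXRG and NCOA2 ran opposite to each other among control animals. There r was -0.916 (exact permutation p = 0.00337, rho = -0.929, exact permutation p = 0.00675, n = 7), with adjusted p-values of 0.0236 and 0.0472 over the 14 relations. Control animal 1, with RXRG at 7.12, had NCOA2 at 5.73, while control animal 7 had RXRG at 5.61 and NCOA2 at 6.44. Without the 2 control animals farthest from the NCOA2 median r was -0.851 (exact permutation p = 0.0917, n = 5), and leaving out single animals gave -0.960 to -0.859. With the whole family recomputed, the adjusted p was 0.204 after quantile normalization (r = -0.763) and 0.132 after median centring (r = -0.826), so the call was lost under both. With single animals left out it ran from 0.0486 to 0.194 and stayed under 0.05 only without control animal 3. Among high-oleic animals r was -0.326 (exact permutation p = 0.437, rho = -0.048, exact permutation p = 0.918, n = 8). Without the 2 farthest it was 0.340, so no direction can be read there. At fixed diet the slope of RXRG on NCOA2 was -0.61 (SE 0.35, limma adjusted p = 0.846), and limma called 0 of 3254 probe sets. The slope of RXRG on NCOA2 differed between diets by 1.59 (SE 0.76), high oleic minus control, with a limma adjusted p of 0.916 and an unadjusted p of 0.0515.

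The spiked signal ran opposite to RXRG among control animals. It is the mean log2 signal of 7 control probe sets for bacterial transcripts spiked in during preparation, and it ran from 5.19 in control animal 1 to 6.12 in control animal 7. With RXRG it gave r = -0.931 (exact permutation p = 0.00258, rho = -0.964, exact permutation p = 0.00278, adjusted p 0.0236 and 0.0389 over 14 relations, n = 7). Without the 2 farthest animals r was -0.944 (exact permutation p = 0.0167, n = 5). The adjusted p was 0.172 after quantile normalization (r = -0.874) and 0.122 after median centring (r = -0.891), so this call was lost as well. With single animals left out it ran from 0.0486 to 0.0875 and stayed under 0.05 only without control animal 3. With NCOA2 it gave r = 0.765 (exact permutation p = 0.0294, rho = 0.857, exact permutation p = 0.0238, n = 7), with adjusted p-values of 0.137 and 0.111. The relation with NCOA2 therefore did not pass the adjusted test. At fixed diet over 15 animals, limma called 735 of 3255 probe sets for the spiked signal. Neither RXRG (limma adjusted p = 0.446) nor NCOA2 (limma adjusted p = 0.940) was among them. The part of the spiked signal in the opposite course of RXRG and NCOA2 was not tested.

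In high-oleic pigs, where the spiked signal ran wider, from 5.25 to 7.29, it gave r = 0.013 with RXRG (exact permutation p = 0.973, n = 8) and r = -0.143 with NCOA2 (exact permutation p = 0.742, n = 8). High-oleic animal 8, at 7.29, had RXRG at 7.72, close to the group median. The RXRG slope on the spiked signal differed between diets by 1.44 (SE 0.49), high oleic minus control, with an unadjusted limma p of 0.0101 and an adjusted p of 0.996. The skeletal muscle score gave r between -0.318 and 0.321 with the 2 genes, and the smallest exact permutation p of those 4 relations was 0.419.

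NCOA2 ran opposite to macrophage markers in high-oleic pigs. The macrophage score averaged CD163, a scavenger receptor, the mannose receptor MRC1 and the complement genes C1QA and C1QC, 4 of 7 listed markers, whose probe sets averaged 6.02 or more in both groups. In high-oleic pigs it gave r = -0.896 with NCOA2 (exact permutation p = 0.00342, rho = -0.898, exact permutation p = 0.00486, n = 8). With the 4 macrophage relations added after the values were seen, the adjusted p was 0.0205 for r and 0.0405 for rho over 18. That adjustment does not cover the choice of this score. Without the 2 animals farthest from the median score r was -0.865 (exact permutation p = 0.0361, n = 6), and without single animals it was -0.929 to -0.857. The adjusted p over 18 was 0.111 after quantile normalization (r = -0.871) and 0.0929 after median centring (r = -0.867), so the call did not hold under either. With single animals left out it ran from 0.0333 to 0.0881, and it was not under 0.05 without high-oleic animal 1, 5, 6 or 8. The score was -1.07 in high-oleic animal 5, which had the highest NCOA2 of its group, and 1.04 in high-oleic animal 8.

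Among control animals, whose scores spanned only -0.44 to 0.54, r with NCOA2 was 0.178 (exact permutation p = 0.723, n = 7). At fixed diet over 15 animals the NCOA2 slope on the score was -0.41 (SE 0.18), with an unadjusted limma p of 0.0370 and an adjusted p of 0.337. That fit called 9 of 3255 probe sets, without NCOA2. The NCOA2 slope on the score differed between diets by -0.65 (SE 0.46), high oleic minus control, with a limma adjusted p of 0.900, so the relation is not shown to differ between diets. Macrophage scores did not separate the diets, with medians of -0.01 in high-oleic pigs and 0.13 in control pigs. With the score in the fit the NCOA2 diet difference was -0.74. For RXRG, r with the score was 0.210 in high-oleic pigs (exact permutation p = 0.615, n = 8) and -0.085 in control pigs (exact permutation p = 0.841, n = 7).

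**Figure D3:**
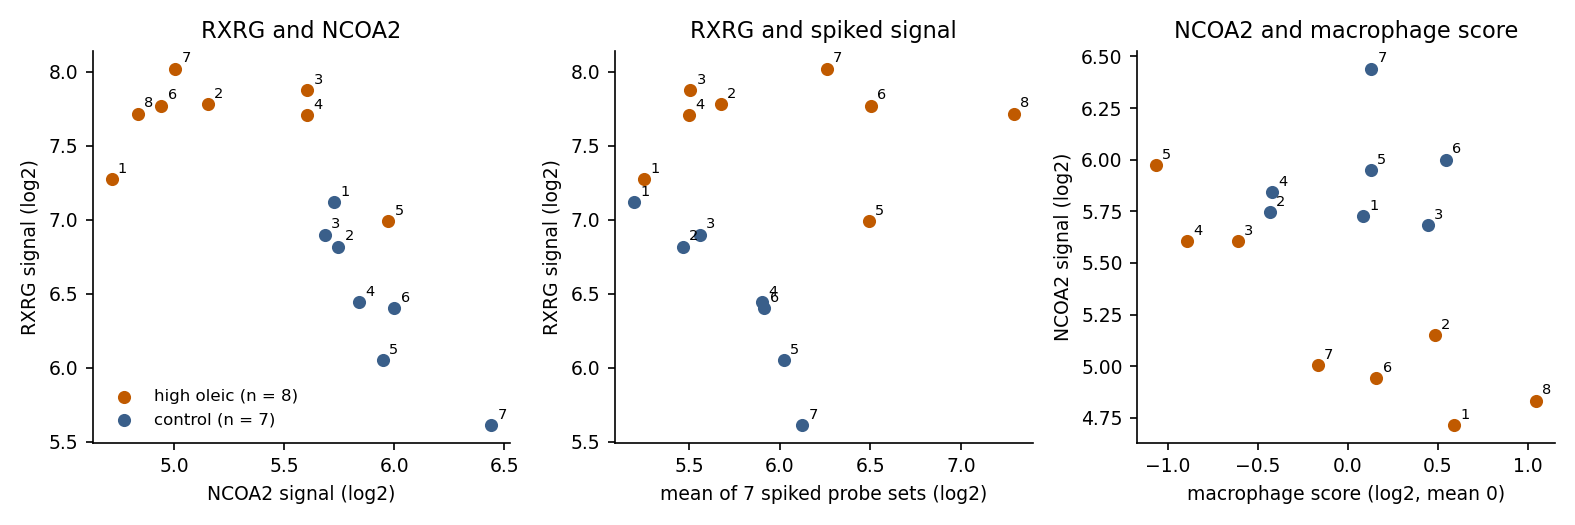
Each point is 1 animal, numbered as in the labels, high oleic (n = 8) and control (n = 7), all axes on the log2 scale. RXRG falls against NCOA2 (left) and against the mean of 7 spiked probe sets (middle) along the control animals, with r of -0.916 and -0.931, and NCOA2 falls against the macrophage score (right) along the high-oleic animals, with r of -0.896.

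Genes whose animal-to-animal pattern was most like that of RXRG were sought after subtracting each diet's mean, over 15 animals. The points share arrays, and at fixed diet the spiked signal itself was called for 735 of 3255 probe sets, so r is a description. DHRS4, a reductase that acts on retinal and other carbonyls, came highest with r = 0.747, at 0.774 within high-oleic and 0.734 within control animals. GK, the glycerol kinase, gave 0.668, the sarcomeric mitochondrial creatine kinase CKMT2 gave 0.655 and UNK 0.703. CLSTN3, a calsyntenin, gave 0.613 and the uncoupling protein UCP3 0.606. The other probe set of GK gave 0.412 and that of UCP3 0.439. Of 3254 other probe sets, 11 reached r of 0.6 with RXRG and 51 reached -0.6. Genes are ranked here among probe sets with 1 symbol, and over all probe sets the lowest r was -0.811 with RXRG and -0.775 with NCOA2.

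At the other end for RXRG, among named genes, stood LHCGR, the luteinizing hormone receptor, at -0.804, the creatine transporter SLC6A8 at -0.777, the apoptosis gene PMAIP1 at -0.687 and the scaffold gene MPDZ at -0.681. LHCGR signal was low, 2.43 in high-oleic pigs and 2.83 in control pigs, in a table that begins at 1.49. It was highest in high-oleic animal 5 within that group, at 3.26, and r with RXRG stayed between -0.870 and -0.739 when single animals were left out. SLC6A8 averaged 8.54 ± 0.88 (SD, n = 8) in high-oleic pigs and 8.53 ± 1.16 (SD, n = 7) in control pigs. PMAIP1 had r of -0.222 in high-oleic pigs and -0.830 in control pigs.

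For NCOA2, sought in the same way, 31 of 3254 other probe sets reached r of 0.6 and 89 reached -0.6. MXI1, which opposes MYC, gave r = 0.794, the PDZ and LIM protein gene PDLIM5 0.763 and the stress-induced SESN1 0.707. The activin receptor ACVR2A gave 0.682, the ephrin ligand EFNB2 0.670 and LHCGR 0.656 on its other probe set. That value ran from 0.404 to 0.725 when single animals were left out, and this LHCGR probe set was highest in high-oleic animal 5, at 4.07. PDLIM5 had r of 0.893 in high-oleic pigs and -0.064 in control pigs, a difference that was not tested. The 4 lowest named genes were CADM1 at -0.767, the arginine deiminase PADI2 at -0.745, the leukocyte kinase BTK at -0.738 and the lysosomal GRN, which encodes progranulin, at -0.730. GRN had r of -0.739 in high-oleic pigs and -0.771 in control pigs.

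**Figure D4:**
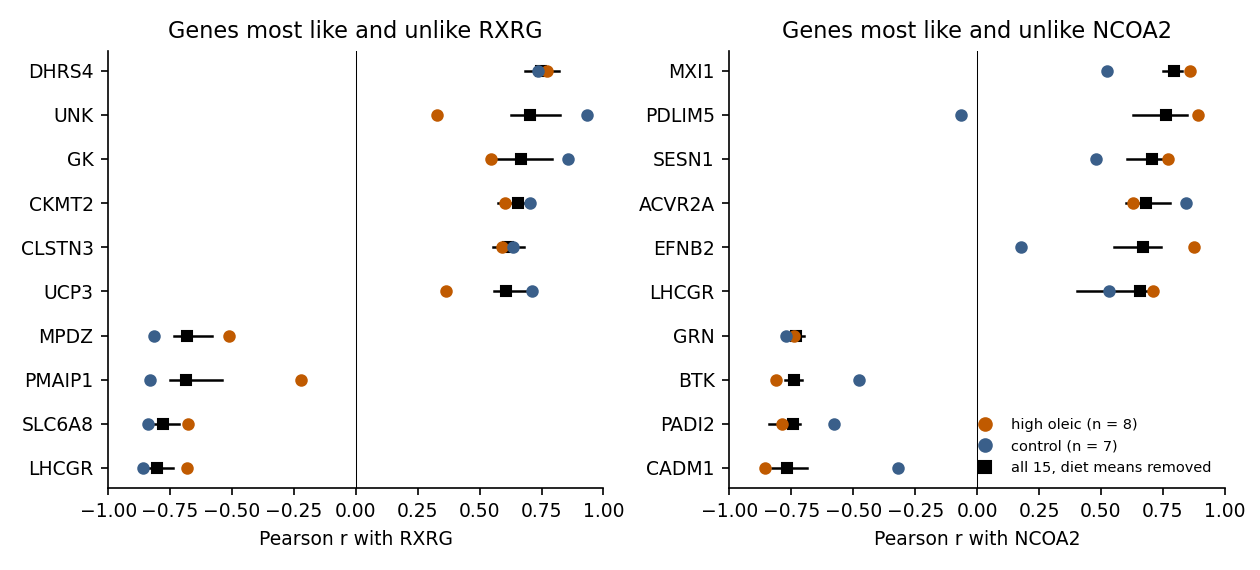
Pearson r of the 6 genes most like and the 4 most unlike RXRG (left) and NCOA2 (right). Black squares are r over 15 animals with diet means removed, the black line is the range when each animal is left out, and coloured points are r within high oleic (n = 8) and control (n = 7) animals. DHRS4 sits at 0.774 and 0.734 with RXRG, and PDLIM5 at 0.893 and -0.064 with NCOA2.

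Among the receptors that pair with RXRs, few were in the table. Of 19 listed genes of the RXR family and its partners 3 were measured, and none was called between diets. RXRB, the beta form of the retinoid X receptor, stood at 4.41 ± 0.54 (SD, n = 8) in high-oleic pigs and 4.27 ± 0.44 (SD, n = 7) in control pigs, a difference of 0.14. NR4A2, an orphan receptor that can pair with RXRs, differed by 0.22. Without high-oleic animal 8 RXRB differed by 0.0018 and NR4A2 by 0.0706, and without high-oleic animal 5 NR4A2 differed by 0.42. With live weight in the fit RXRB differed by -0.31 and NR4A2 by -0.21. The weight slope of RXRB at fixed diet was -0.56 per 10 kg (SE 0.23, limma adjusted p = 0.916). PPARG, the LXRs, the retinoic acid receptors and RXRA were not analysed here. Of 29 other nuclear receptors, NR3C1, the glucocorticoid receptor, differed by -0.29 and NR4A3 by 0.19. NR3C1 differed by -0.0816 with live weight in the fit, -0.0074 in the weight window and -0.18 without high-oleic animal 8. NR4A3 ran from -0.20 without control animal 2 to 0.58 without control animal 7.

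Of 35 coregulators 3 were measured. Besides NCOA2 these were TRIM24, a corepressor of retinoic acid receptors in mice, at -0.30 (95% interval -0.81 to 0.22), and HDAC3, the deacetylase of the NCOR complex, at 0.24 (95% interval -0.36 to 0.83). TRIM24 differed by -0.0432 with live weight in the fit, -0.10 in the weight window and -0.18 without control animal 7. HDAC3 differed by 0.0653 without high-oleic animal 8, the animal with the highest spiked signal, and by 0.49 with live weight in the fit. TRIM24 had r = -0.608 with RXRG after diet means were removed and 0.337 with NCOA2. NCOA1, NCOA3, NCOR1 and PPARGC1A were not analysed here.

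Of 38 listed genes that transport and convert retinoids 7 were measured, with 0 called between diets. The median difference over the 7 was 0.10, against -0.03 over all tested probe sets, among which 1522 had a positive and 1733 a negative difference. DHRS4 stood at 9.82 ± 0.22 (SD, n = 8) in high-oleic pigs and 9.27 ± 0.33 (SD, n = 7) in control pigs, a difference of 0.55 (95% interval 0.11 to 0.99, limma adjusted p = 0.999). RBP4, the retinol carrier that fat also secretes, differed by 0.35 and the carotenoid-cleaving BCO2 by 0.45. With live weight in the fit DHRS4 differed by 0.32. RBP4 differed by 0.22 in that fit, by 0.12 in the weight window and by 0.21 without high-oleic animal 8. BCO2 differed by 0.20 without high-oleic animal 7, by 0.70 without control animal 4 and by 0.23 in the weight window. The retinol-binding RBP7 differed by 0.10, DGAT1, which also esterifies retinol, by 0.07 and the retinoic acid carrier CRABP2 by 0.04. Both probe sets of RARRES1, a retinoic acid-induced gene, differed by -0.08, and in the weight window by -0.91 and -1.09. CRABP2, RBP7, DGAT1 and RARRES1 turned sign when single animals were left out. High-oleic animal 8 had CRABP2 at 8.27, where the rest of its group had a median of 4.68.

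Targets of the receptors that RXR partners were described by counts. Of 35 listed PPAR targets 8 were measured, each with a positive difference, a median of 0.55 and 0 called. The adipocyte markers LEP and PNPLA2 differed by 0.52 to 0.63 in the same direction and the 3 erythroid markers by a median of 0.52. The 3 lymphocyte markers differed by a median of 0.39. All 6 smooth muscle and pericyte markers had a negative difference, with a median of -0.65, as did the 11 skeletal muscle markers, with a median of -0.34. At fixed diet the 11 skeletal muscle markers all had positive weight slopes, from 0.86 for a PYGM probe set to 2.12 per 10 kg for MYH2, with 0 called. Control pigs were heavier, and the diet difference of these markers with live weight in the fit was not examined. The part of the marked cell types in the values of RXRG and NCOA2 was not tested beyond the skeletal muscle and macrophage scores given above. For the listed genes it was not tested. PCK1, which supplies glycerol for triglycerides, stood at 7.13 ± 1.21 (SD, n = 8) in high-oleic pigs and 5.67 ± 1.76 (SD, n = 7) in control pigs, a difference of 1.47 (95% interval 0.14 to 2.79). GK differed by 0.66 and 0.48 on its probe sets, UCP3 by 0.79 and 0.77, and CPT1A, which admits fatty acids to mitochondria, by 0.54. Each had a limma adjusted p of 0.999. With live weight in the fit PCK1 differed by 0.85, GK by 0.41 and CPT1A by 0.14, and CPT1A differed by 0.33 without control animal 5 and by 0.24 in the weight window. Weight slopes of all 8 PPAR targets at fixed diet were negative, from -0.06 per 10 kg for UCP2 to -1.61 for PDK4, with 0 called. High-oleic pigs were lighter. For PDK4, ANGPTL4, PLIN2 and UCP2 the diet difference with live weight in the fit was not examined. The common sign of the 8 is therefore not shown to hold at equal weight. After diet means were removed, the 8 genes gave r with RXRG between 0.001 and 0.668, the highest being that of GK.

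LXR targets showed no common direction. Of 17 listed, 3 were measured and 0 called: the cholesterol exporter ABCA1 differed by -0.35, the acetyl-CoA carboxylase ACACA by -0.09 and the fatty acid synthase FASN by 0.02. With live weight in the fit ACACA differed by 0.70 and FASN by 0.49, and in the weight window ABCA1 differed by -0.23. Of 20 targets of retinoic acid and thyroid hormone, the 2 measured were UCP3 and CRABP2, given above, and 0 were called. Some genes stand in more than 1 list.

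**Figure D5:**
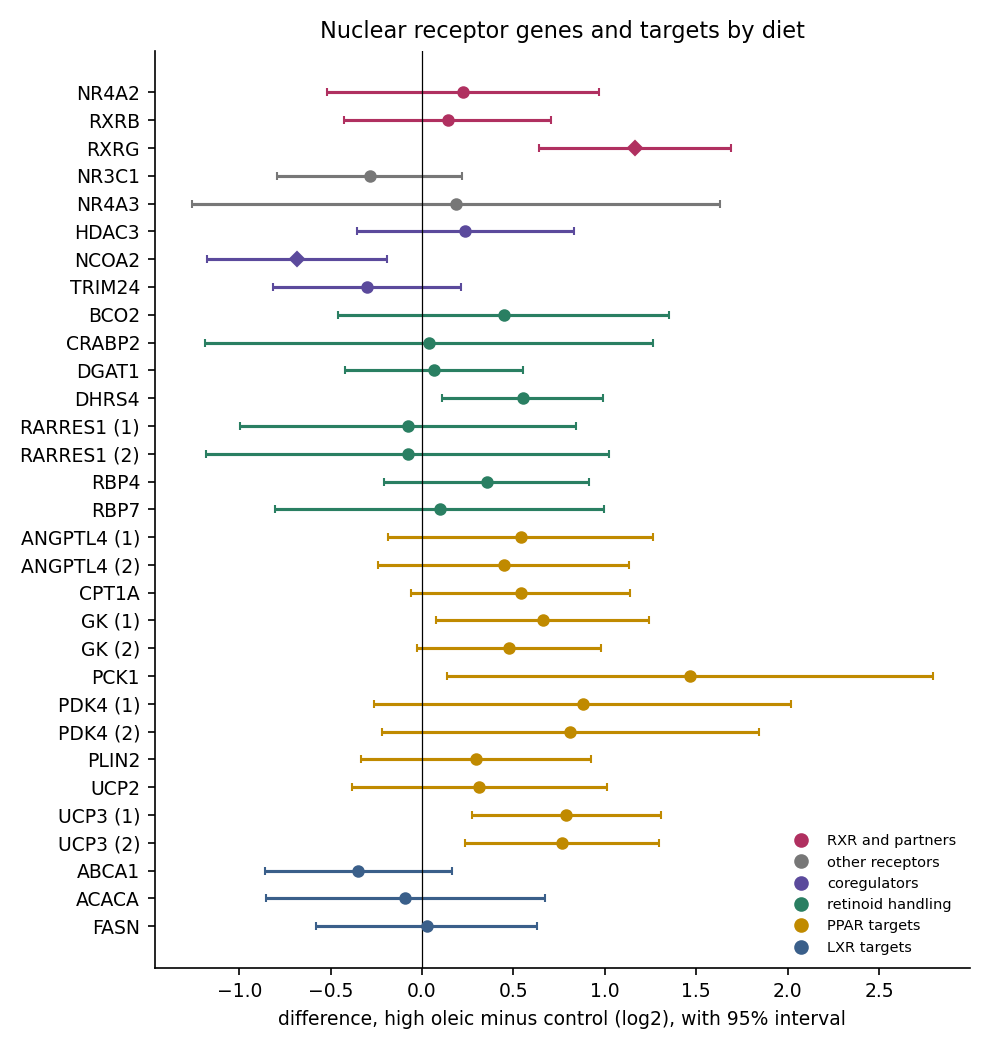
Difference between diets (high oleic minus control, log2) with its 95% interval from limma, for each probe set of the nuclear receptor, coregulator, retinoid, PPAR target and LXR target lists, coloured by list, with n = 8 and n = 7. The diamonds are RXRG at 1.17 and NCOA2 at -0.68, which were chosen for this difference, and the intervals of most other genes include 0.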

How the data were processed

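For 15 Affymetrix porcine arrays the deposited values are log2 signals, 1 per probe set. The submitters' processing notes name GCOS and GCRMA, without role, version or setting. The log2 scale and the filter on variability were read from the values. Of 3272 probe sets, 17 manufacturer controls were left out of tests. Names came from the platform annotation: 1455 of 3255 probe sets had 1 symbol, 27 several (not named) and 1773 none.

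Diet, live weight and interaction effects were fitted with limma 3.58.1 in R 4.3.3 over all 3255 probe sets, without further normalization, two-sided, calling an adjusted p (Benjamini-Hochberg) under 0.05. Correlations within diets used exact two-sided permutation over all orders. The fits were checked on simulated data. The replicate is the animal. The number of arrays limits the precision.

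The members and lists were chosen with earlier results of these data known. Named were both members, the 6 genes most and 4 least like each (1 probe set per gene), every measured receptor, coregulator and retinoid gene, and up to 4 targets per list by smallest p. Means of muscle markers, of macrophage markers and of spiked probe sets served as scores. Alternatives were quantile normalization, median centring, a filter at a mean log2 of 4, trend and robust variance, the animal number as a block, single animals left out, live weight as a covariate and a weight window. Added after seeing the data were the spiked, muscle and macrophage covariates, the macrophage relations, the relations under other scalings and without single animals, and the alternatives for the named list genes. Figures were drawn with matplotlib 3.10.9.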

Additional observations from a re-analysis of the deposited data

Results flagged for a closer look

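In 90 checks within diet groups, 6 values lay far from the others of their group, where chance would give about 4.50. Control animal 7 had NCOA2 at 6.44, where the rest of its group had a median of 5.79. Control animal 5 weighed 133 kg, where the rest had a median of 114 kg, and its CPT1A was 7.67, where the rest had 9.22. Both LHCGR probe sets were highest in high-oleic animal 5, at 3.26 against a median of 2.31 and at 4.07 against 2.29. This animal also had the lowest RXRG and the highest NCOA2 of its group. CRABP2 was 8.27 in high-oleic animal 8, against 4.68.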

How the results depend on the processing

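The diet differences of RXRG and NCOA2 kept their sign and moved by less than the SD within diets under every alternative run. With single animals left out they were 1.02 to 1.27 and -0.79 to -0.60. The largest move was that of NCOA2, from -0.68 to -0.36 (SE 0.26) in the weight window. The number of probe sets called between diets was 0 in each of these fits and 1 with the spiked signal as a covariate. For live weight it was 0 to 5 with single animals left out, 5 when control animal 2 was omitted and 2 when high-oleic animal 7 was, and neither member was among them. The live weight slope ran with single animals left out from -0.30 to 0.0155 for RXRG, the positive value being that without control animal 5, and from 0.09 to 0.46 for NCOA2. With the animal number as a replicate block the slopes reversed to 0.35 for RXRG and -0.35 for NCOA2, and the diet differences were 1.15 and -0.63. High-oleic animal 8 has no control animal of its number, so these diet differences are the same as those without animal 8. Whether the numbers pair the animals is not stated by the labels and was not settled here. Deviations of same-numbered animals gave r of -0.161 to 0.296, above 0.1 in 4 of 7 pairs. Of the control animals, 2 of 7 correlated best with their own number. The NCOA2 slope difference was -0.0412 without control animal 5. Without the 2 animals farthest from the median of the second measure, r turned to 0.340 for RXRG with NCOA2, -0.183 for RXRG with live weight, -0.401 for RXRG with the spiked signal, -0.471 for RXRG with the macrophage score and 0.054 for NCOA2 with the muscle score in high-oleic pigs. In control pigs it turned to 0.221 for RXRG and -0.234 for NCOA2 with the macrophage score. The spiked relation of RXRG in high-oleic pigs also turned under quantile normalization (-0.141) and median centring (-0.159), as did that of NCOA2 with the macrophage score in control pigs (-0.080 and -0.027). The 3 relations that passed the adjusted test were RXRG with NCOA2 and with the spiked signal in control pigs, and NCOA2 with the macrophage score in high-oleic pigs. The macrophage relation was added after the values were seen, and its adjustment does not cover that choice. All 3 kept their sign and lost the call under both scalings, with adjusted p-values of 0.0929 to 0.204. Scores and the spiked signal stayed as deposited in these fits. Alternatives were examined only for the named list genes, so targets such as PDK4 and PLIN2 are not covered. Among the named genes, live weight as a covariate reversed RXRB (-0.31), NR4A2 (-0.21) and ACACA (0.70). The weight window reversed RXRB (-0.21), NR4A2 (-0.0825), ACACA (0.37) and CRABP2 (-0.0509). The replicate block reversed DGAT1 (-0.0403), CRABP2 (-0.44), RBP7 (-0.0557) and FASN (-0.0496). For these genes too, the replicate block values are the same as those without high-oleic animal 8. With single animals left out NR4A3 ran from -0.20 to 0.58, RARRES1 from -0.29 to 0.14 and from -0.37 to 0.16, DGAT1 from -0.0403 to 0.17, CRABP2 from -0.44 to 0.33, RBP7 from -0.0557 to 0.47, ACACA from -0.24 to 0.12 and FASN from -0.0833 to 0.17. The causes of these reversals were not tested. Quantile normalization and median centring shifted the median difference of all probe sets by 0.02 and 0.01. With 15 arrays, slopes at fixed diet had wide intervals.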
